A study of Ovis aries with 15 samples.

Results

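The genes described are VEGFA, PDGFB and, where the array holds them, KDR, FLT1, ANGPT1, ANGPT2 and TEK, which encode growth factors and receptors of blood vessel formation. They were chosen by the gene name printed for each probe in the scanner files, in any letter case, and not by a measured value. Earlier results of these data were known when the choice was made. Of the 7 genes, 5 were found under those names, among 1020 different gene names on the array, with 10 probes: 2 for VEGFA, 3 for PDGFB, 2 for FLT1, 1 for ANGPT1 and 2 for ANGPT2. KDR and TEK were present only under older or provisional names. Another 13 probes carried such names of the same genes (VEGFR-1 and FLT-1 for FLT1, VEGFR-2 and LOC443087 for KDR, ANG-1 for ANGPT1, ANG-2 for ANGPT2, LOC443516 and tie2 for TEK), and they are reported beside the 10.

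The tissue was kidney cortex of fetal sheep at about 125 days of gestation, each carrying implanted catheters, and 1 array was hybridised per fetus with Cy3-labelled RNA. Hypoxic ketamine fetuses (4 arrays) received 3 mg/kg ketamine, a blocker of NMDA-type glutamate receptors, into a vein 10 min before their mother breathed a low-oxygen gas mixture for 30 min. Hypoxic vehicle fetuses (4 arrays) received saline before the same exposure. Normoxic ketamine fetuses (4 arrays) received the same dose of ketamine, and normoxic vehicle fetuses (3 arrays) received saline, each with 30 min of normal air in place of low oxygen. All cortices were taken 24 h after the exposure began, so every level below describes that single time, in whole cortex.

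VEGFA is a secreted factor that makes endothelial cells divide, migrate and become permeable, and in the kidney it is produced largely by podocytes and tubule cells. It signals mainly through KDR (VEGFR-2), while FLT1 (VEGFR-1) binds it tightly with little signalling and also exists as a soluble decoy. PDGFB is released by endothelial cells and draws pericytes and mesangial cells to new vessels. ANGPT1, made by cells around the vessel, activates the endothelial receptor TEK (TIE2) and keeps vessels quiet, and ANGPT2, released by endothelial cells, usually opposes it. VEGFA, FLT1 and ANGPT2 are textbook targets of the transcription factors that accumulate in low oxygen.

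The probes are 60 bases long, and their sequences, taken from the array's own annotation, show which readings are independent. Capitals mark the longest stretch that a probe shares with another probe of the same gene. The VEGFA probes share 59 bases and are offset by a single base, so they read the same site.

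VEGFA A_70_P050921: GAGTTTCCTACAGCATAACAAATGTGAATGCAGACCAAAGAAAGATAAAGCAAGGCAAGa
VEGFA A_70_P050922: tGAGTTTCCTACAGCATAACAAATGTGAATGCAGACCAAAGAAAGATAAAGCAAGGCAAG

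The KDR pair under the name VEGFR-2 shares 40 bases, and the pair named ANGPT2 shares 20. The ANGPT2 probes named ANG-2 (A_70_P002906 and A_70_P002907, not shown) share 59 bases and read the same site.

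KDR A_70_P026596: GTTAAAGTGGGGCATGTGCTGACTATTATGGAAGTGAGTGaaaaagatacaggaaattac
KDR A_70_P026597: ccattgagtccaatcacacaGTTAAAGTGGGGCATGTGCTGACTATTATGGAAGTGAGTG
ANGPT2 A_70_P049681: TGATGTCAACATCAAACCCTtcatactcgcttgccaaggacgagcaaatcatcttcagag
ANGPT2 A_70_P049682: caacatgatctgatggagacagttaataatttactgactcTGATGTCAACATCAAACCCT

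The ANGPT1 probes share no stretch of 12 bases or more, so they read separate sites of the transcript.

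ANGPT1 A_70_P049691: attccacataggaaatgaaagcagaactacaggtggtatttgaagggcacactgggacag
ANGPT1 A_70_P002901: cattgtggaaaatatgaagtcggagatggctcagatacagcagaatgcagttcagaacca

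The FLT1 pair is shown because its probes share 59 bases and yet differed in their values, which were close to the background.

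FLT1 A_70_P026321: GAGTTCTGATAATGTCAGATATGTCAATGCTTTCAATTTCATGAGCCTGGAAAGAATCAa
FLT1 A_70_P026322: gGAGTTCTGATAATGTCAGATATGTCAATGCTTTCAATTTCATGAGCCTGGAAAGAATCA

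Values are scaled signals, given as a percentage of the 75th percentile of all probes on the same array, in the order of the replicate numbers. This percentile lay between 1071 and 1456 intensity units, and between 75.6% and 85.2% of probes were well above background. Differences are on the log2 scale with the standard error (SE) of a limma fit over 12923 probes and all 15 arrays, and a probe counted as called where limma gave it an unadjusted p up to 0.05. Kidney identity was visible in WT1 of podocytes (278 to 490.3%) and in the tubule water channels AQP1 and AQP2 (27.4 to 65.5%). Cortex was not compared with medulla. Placental lactogen, a hormone of the placenta, was well above background on 3 arrays (normoxic ketamine replicates 1 and 2 and hypoxic ketamine replicate 2). Hypoxic vehicle replicate 4 and hypoxic ketamine replicate 2 were the arrays least correlated with the others (median r = 0.951 and 0.965). The arrays lay on 2 slides, each holding all 4 groups, with a single normoxic vehicle array on slide 2.

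With hypoxia in vehicle fetuses, none of the 10 probes rose and 1 fell, and of 12 tested probes under other names 1 rose and 5 fell. Over all probes of the array, 5.88% rose and 10.1% fell (16% either way). With hypoxia in ketamine fetuses 1 of the 10 and 5 of the 12 fell and none rose, while over all probes 3.54% rose and 5.17% fell (8.71% either way). With ketamine in hypoxic fetuses 4 of the 10 and 5 of the 12 fell and none rose, while over all probes 2.38% rose and 3.66% fell (6.04% either way). With ketamine in normoxic fetuses 1 of the 10 and 1 of the 12 fell and none rose, while over all probes 0.975% rose and 1.73% fell (2.71% either way). The median differences of the 22 probes in these 4 comparisons were -0.20, -0.12, -0.35 and -0.30, and those of all probes were -0.05, -0.03, 0.01 and -0.01. Probes of a gene are not independent, and comparisons that use the same group share its arrays. After Benjamini-Hochberg adjustment over all probes none of the 22 passed at 0.05 in any comparison (lowest adjusted p 0.206), and 0.0155% of all probes did so with hypoxia in vehicle fetuses and 0% in the other comparisons.

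**Figure D1:**
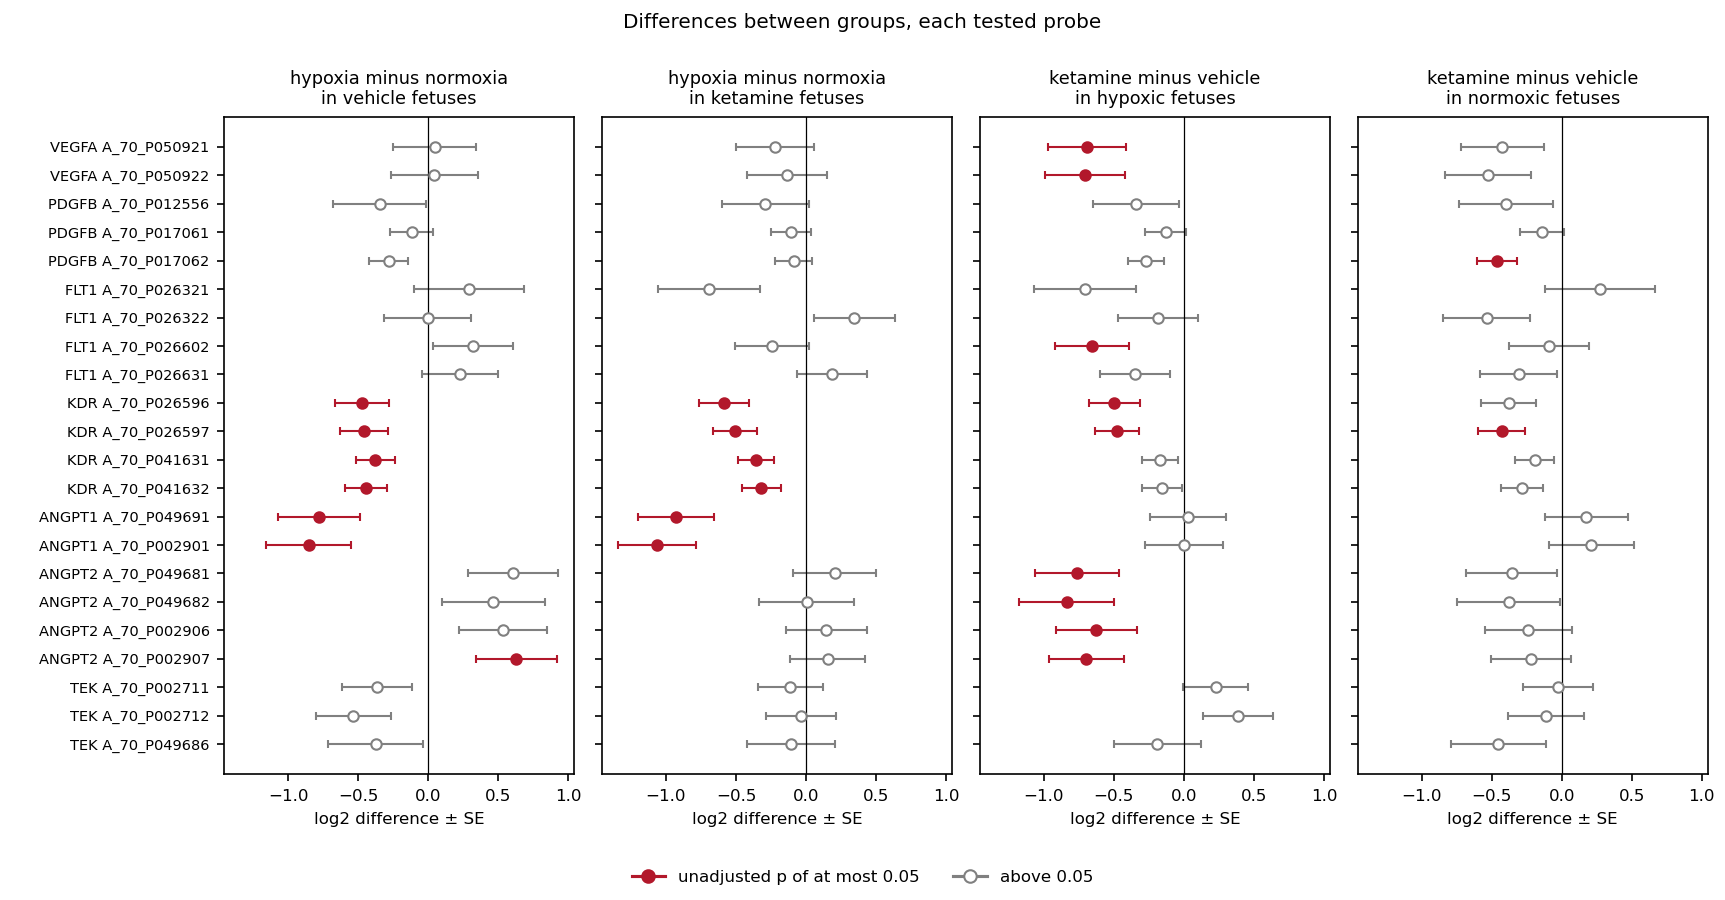
Log2 differences with SE (x axis) for each of the 22 tested probes (y axis) in 4 comparisons, hypoxia over normoxia in the left pair of panels and ketamine over vehicle in the right pair. Filled red points have an unadjusted p of at most 0.05: KDR and ANGPT1 lie left of 0 in both hypoxia panels, and VEGFA, ANGPT2 and some receptor probes lie left of 0 with ketamine in hypoxic fetuses. ANGPT2 A_70_P002907 lies right of 0 with hypoxia in vehicle fetuses. PDGFB A_70_P017062 and KDR A_70_P026597 lie left of 0 with ketamine in normoxic fetuses.

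VEGFA was well above background on all 15 arrays, and its level was lowest in the hypoxic fetuses given ketamine, where it fell relative to hypoxic fetuses given vehicle. The scaled signal of A_70_P050921 was 159, 149.7, 156 and 131% in hypoxic ketamine fetuses. It was 414, 172, 333 and 140.3% in hypoxic vehicle fetuses. In normoxic ketamine fetuses it was 178, 156, 217 and 149.5%, and in normoxic vehicle fetuses 237, 221 and 240.5%. Hypoxic vehicle fetuses thus spread widely, with replicates 1 and 3 above and replicates 2 and 4 below every normoxic vehicle array, while the other 3 groups were compact. The group means ran from hypoxic vehicle (265 ± 130.4%, SD) through normoxic vehicle (233 ± 10.1%) and normoxic ketamine (175 ± 30.3%) to hypoxic ketamine (149 ± 12.4%). Neighbours in this order overlapped, except that every normoxic vehicle array lay above every normoxic ketamine array.

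VEGFA fell with ketamine in hypoxic fetuses by 0.69 ± 0.28 (SE) on the log2 scale at A_70_P050921 (1.62-fold lower, 95% interval -1.29 to -0.10, adjusted p = 0.815 in limma). At A_70_P050922, whose values followed the first probe closely (r = 0.992 over the 15 arrays), the difference was -0.71 ± 0.29 and was called too. The groups overlapped at hypoxic vehicle replicate 4, and replicate 2 lay just above the ketamine arrays. Both of these vehicle arrays were on slide 1 and both high ones on slide 2, and the difference was -0.15 ± 0.20 within slide 1, where it did not pass, -1.24 ± 0.24 within slide 2, where it did, and -0.69 with slide as a block, where it also did. The call ended without hypoxic vehicle replicate 1 (-0.43 and -0.42 at the probes), hypoxic vehicle replicate 3 (-0.54 and -0.57) or hypoxic ketamine replicate 4 (-0.63 and -0.65). It also ended without the arrays with placental lactogen (-0.70 and -0.71) and with a spread estimated from these groups alone (-0.69 and -0.71).

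**Figure D2:**
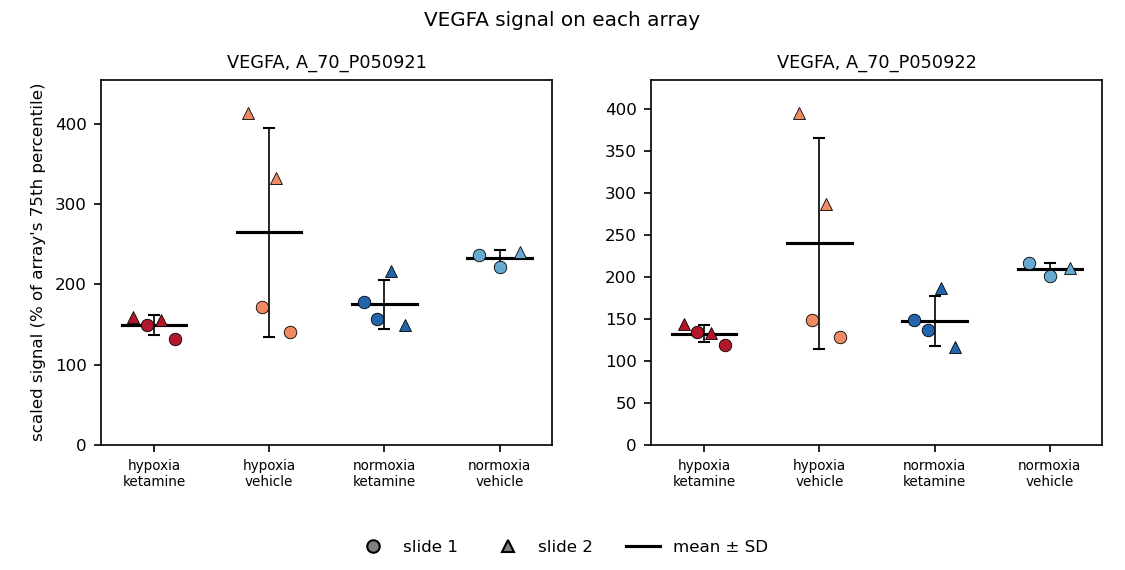
Scaled VEGFA signal (y axis, percent of each array's 75th percentile, starting at 0) on every array of the 4 groups (x axis) at both probes, with the slide as the marker shape and lines for mean ± SD. Hypoxic vehicle arrays on slide 2 reach 414 and 333% at A_70_P050921, and those on slide 1 have 172 and 140.3%.

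No change of VEGFA with hypoxia was detected in either treatment arm. In vehicle fetuses the difference was 0.05 ± 0.30 at A_70_P050921 (adjusted p = 0.957 in limma), with a 95% interval of -0.59 to 0.69. Within slide 1 it was -0.56 ± 0.20 and passed the test, and within slide 2 it was 0.63, a value with no test since a single normoxic vehicle array lay there. At A_70_P050922 these values were 0.04, -0.60 (passed) and 0.68, so the pooled value near 0 joins slides with opposite signs. In ketamine fetuses the difference was -0.22 ± 0.28 (adjusted p = 0.886), and -0.25 and -0.19 within the slides. Each slide held 2 of the 4 hypoxic vehicle fetuses, so slide and fetus cannot be told apart.

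In normoxic fetuses every ketamine array had less VEGFA signal than every vehicle array, but the difference did not pass the test. It was -0.42 ± 0.30 at A_70_P050921 and -0.53 ± 0.31 at A_70_P050922 (adjusted p = 0.9998 for both). The groups did not overlap at either probe, as was so for 7 of the 22 probes in this comparison, all 7 lower with ketamine, and for 6.96% of all probes (4.41% lower). With the spread taken from the normoxic arrays alone, which leaves out the scattered hypoxic vehicle group, both probes passed. No difference of the ketamine effect between hypoxic and normoxic fetuses was detected, with an interaction of -0.27 ± 0.41 (adjusted p = 0.992) and a 95% interval of -1.14 to 0.61. None of the 22 probes passed the interaction test in limma, against 3.1% of all probes (1.91% above 0 and 1.18% below).

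KDR, the main signalling receptor for VEGFA, fell with hypoxia at all 4 of its probes in both treatment arms. At A_70_P026597 the scaled signal was 7.55, 8.53, 10.4 and 7.61% in hypoxic ketamine fetuses and 14.2, 13.6, 8.81 and 11.3% in hypoxic vehicle fetuses. It was 13.8, 10.95, 12.5 and 10.9% in normoxic ketamine fetuses and 16.8, 16.2 and 15.6% in normoxic vehicle fetuses. Every hypoxic array lay below every normoxic array of the same treatment, and hypoxic ketamine fetuses were the lowest group. The mean levels ran from normoxic vehicle (16.2 ± 0.608%, SD) through normoxic ketamine (12.1 ± 1.40%) and hypoxic vehicle (11.97 ± 2.45%) to hypoxic ketamine (8.52 ± 1.32%), and of these neighbours only the normoxic groups did not overlap.

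In vehicle fetuses the 4 KDR probes fell by 0.38 to 0.47 with hypoxia (A_70_P026597: 0.46 ± 0.17, adjusted p = 0.232 in limma). The groups did not overlap at any of the 4, as was so for 8 of the 22 probes (7 lower) and for 14.6% of all probes (9.36% lower). In ketamine fetuses the probes fell by 0.32 to 0.59 (A_70_P026597: 0.51 ± 0.16, adjusted p = 0.362). Here the groups did not overlap at A_70_P026597 alone of the 4, and at 2 of the 22 probes, both lower, against 6.49% of all probes (3.84% lower). Within slides 1 and 2 the KDR differences kept their sign, at -0.50 to -0.25 and -0.61 to -0.42 in vehicle fetuses, and at -0.83 to -0.21 and -0.43 to -0.35 in ketamine fetuses.

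KDR fell with ketamine in hypoxic fetuses at the VEGFR-2 pair, by 0.50 ± 0.18 at A_70_P026596 and by 0.48 ± 0.16 at A_70_P026597 (adjusted p = 0.787 for both). The pair was lower within both slides (-0.67 and -0.62 on slide 1, -0.32 and -0.33 on slide 2). The LOC443087 probes, which share no 12-base stretch with that pair, had -0.17 ± 0.13 (A_70_P041631) and -0.16 ± 0.14 (A_70_P041632) and were not called. In normoxic fetuses A_70_P026597 fell by 0.43 ± 0.17 (adjusted p = 0.9998) and the other 3 had -0.38 to -0.19. All 11 KDR calls ended with normexp background correction (values from -0.30 to -0.05). It subtracts each spot's measured background, models the signal of each array and adds 50 intensity units. Added units shrink the log2 differences of dim probes. Normexp was not run without them, so their part in the ended calls was not tested.

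Single arrays also decided some KDR calls. With hypoxia in vehicle fetuses, A_70_P026596 was not called with any 1 of the normoxic vehicle arrays left out (-0.50 to -0.44) or without hypoxic vehicle replicates 3 (-0.39) or 4 (-0.41). A_70_P026597 was not called without normoxic vehicle replicate 1 (-0.43) or hypoxic vehicle replicate 3 (-0.32), nor A_70_P041631 without normoxic vehicle replicate 3 (-0.27). In ketamine fetuses A_70_P041631 was not called without normoxic ketamine replicate 3 (-0.28), nor A_70_P041632 without normoxic ketamine replicates 1 (-0.26) or 3 (-0.25) or hypoxic ketamine replicates 1 (-0.19) or 2 (-0.32). The VEGFR-2 pair kept that call with each array left out in turn but lost it without the arrays with placental lactogen (-0.52 and -0.48), as did A_70_P041632 (-0.36). A_70_P041632 also lost it with only the groups compared and without the 2 arrays least correlated with the others (-0.32 for each), and without those 2 arrays A_70_P026596 was not called with hypoxia in vehicle fetuses (-0.41). The ketamine call in hypoxic fetuses ended at A_70_P026596 without hypoxic vehicle replicate 1 (-0.41) or hypoxic ketamine replicate 4 (-0.38) and held at A_70_P026597. The ketamine call in normoxic fetuses ended without normoxic vehicle replicates 1 or 2 or normoxic ketamine replicates 2 or 4 (-0.43 to -0.38), without the arrays with placental lactogen (-0.47) and in the authors' deposited table (-0.33).

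FLT1, the other VEGFA receptor, lay close to background at several probes, and its probes disagreed. The pair named FLT1 had scaled signals from 0.42 to 2.47% and was well above background on 12 arrays each, and no difference between groups was called. A_70_P026321 and A_70_P026322, which share 59 bases, correlated at r = 0.31 over the 15 arrays. One further probe, A_70_P026601, was well above background on 1 array and was not tested.

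FLT1 at A_70_P026602, a probe named VEGFR-1 and well above background on all 15 arrays, had scaled signals of 2.37, 2.71, 2.59 and 2.94% in hypoxic ketamine fetuses, against 6.58, 2.36, 5.84 and 3.33% in hypoxic vehicle fetuses. The normoxic arrays held 3.59, 3.13, 3.53 and 2.44% with ketamine, against 3.15, 3.58 and 3.29% with vehicle. As for VEGFA, hypoxic vehicle replicates 1 and 3 stood above all other arrays, and replicate 2 lay level with the lowest hypoxic ketamine array. FLT1 at this probe fell by 0.66 ± 0.26 with ketamine in hypoxic fetuses (1.58-fold lower, adjusted p = 0.815 in limma), with 0.01 within slide 1 and -1.32 within slide 2. The call ended with normexp (-0.06), without hypoxic vehicle replicates 1 (-0.44) or 3 (-0.49), without hypoxic ketamine replicate 1 (-0.60), with only the groups compared (-0.66) and without the 3 arrays that carried placental lactogen (-0.67). A_70_P026631, named FLT-1, showed the same 2 arrays highest (8.9 and 8.83%, other arrays 3.8 to 7.97%), and its difference of -0.35 ± 0.25 was not called, with 0.19 within slide 1 and -0.89 within slide 2.

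Of the 3 probes named PDGFB, the endothelial factor that recruits pericytes, 1 was called, in 1 comparison. That probe, A_70_P017062, was designed on a GenBank sequence whose identity as PDGFB rests on the name in the scanner files and was not checked here, so its values may not be those of PDGFB. Its correlation with A_70_P012556, the probe designed on the RefSeq transcript, was r = 0.474 over the 15 arrays and 0.176 after group means were removed. At A_70_P017062 the scaled signal was 6.05, 6.46, 8.23 and 5.24% in hypoxic ketamine fetuses and 8.56, 7.40, 7.00 and 8.04% in hypoxic vehicle fetuses. It was 6.89, 6.58, 6.68 and 7.10% in normoxic ketamine fetuses and 9.08, 10.6 and 8.64% in normoxic vehicle fetuses. The normoxic vehicle arrays were the 3 highest of all 15, and the remaining groups overlapped. With ketamine in normoxic fetuses this probe fell by 0.46 ± 0.14 (1.38-fold lower, adjusted p = 0.9998 in limma), with -0.54 within slide 1 and -0.33 within slide 2.

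The other PDGFB probes did not pass the test. A_70_P017061, which shares 59 bases with the first and was designed on the same GenBank sequence, had -0.14 ± 0.16, and A_70_P012556, which reads another site, had -0.40 ± 0.33. The probe A_70_P012556 had 0.599 to 2.70% and was well above background on 13 of 15 arrays. The call at A_70_P017062 ended with normexp (-0.23) and narrowly in the authors' deposited table (-0.27 ± 0.13). In the other comparisons the 3 probes had differences of -0.35 to -0.09, and none was called. The sequence of A_70_P012556, the PDGFB probe designed on a RefSeq transcript, is shown for identity.

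PDGFB A_70_P012556: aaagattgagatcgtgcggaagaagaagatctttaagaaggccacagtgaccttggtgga

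ANGPT1, the ligand that activates TEK and steadies vessels, fell with hypoxia in both treatment arms and at both of its probes, more than any other of the 7 genes. At A_70_P049691 the scaled signal was 21.3, 18.6, 35.9 and 39.3% in hypoxic ketamine fetuses and 32.7, 36.6, 22.7 and 19.1% in hypoxic vehicle fetuses. It was 52.1, 51.4, 39.2 and 69.3% in normoxic ketamine fetuses and 52.5, 44.2 and 41.8% in normoxic vehicle fetuses. All 8 hypoxic arrays lay below all 7 normoxic ones, apart from hypoxic ketamine replicate 4 (39.3%), which was just above normoxic ketamine replicate 3 (39.2%). At A_70_P002901, which reads a separate site, the values were 12.9 to 31.8% in the hypoxic and 34.5 to 55.1% in the normoxic fetuses, with no overlap, and the 2 probes correlated at r = 0.987 over the 15 arrays. Within the arms, hypoxic arrays lay wholly below normoxic ones for 9.36% of all probes in vehicle and 3.84% in ketamine fetuses. No such share is given for both arms together.

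With hypoxia in ketamine fetuses ANGPT1 fell by 0.93 ± 0.27 at A_70_P049691 (1.90-fold lower, adjusted p = 0.329 in limma) and by 1.06 ± 0.28 at A_70_P002901 (2.09-fold lower, adjusted p = 0.283). In vehicle fetuses it fell by 0.78 ± 0.29 (1.71-fold lower, adjusted p = 0.238) and by 0.85 ± 0.30 (1.81-fold lower, adjusted p = 0.218). The falls were of like size within slides 1 and 2, at -0.94 and -0.92 for A_70_P049691 in ketamine fetuses and at -0.87 and -0.62 in vehicle fetuses. The call in vehicle fetuses ended without normoxic vehicle replicate 1 (-0.68 and -0.76 at the probes) and, at A_70_P049691, without hypoxic vehicle replicate 4 (-0.61). In ketamine fetuses it ended at A_70_P049691 without the arrays with placental lactogen (-0.75) and held with each array left out in turn.

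No ketamine effect on ANGPT1 was detected. It was 0.03 ± 0.27 (adjusted p = 0.99) in hypoxic fetuses, with a 95% interval of -0.56 to 0.61, and 0.18 ± 0.29 (adjusted p = 0.9998) in normoxic fetuses at A_70_P049691. The interaction was -0.15 ± 0.40 (adjusted p = 0.992), and a difference between the falls in the 2 arms was not detected. In bulk tissue, fewer cells that make a transcript and less of it per cell cannot be told apart. Of 12 listed markers of the cells around vessels, 2 were tested. Of these, 1 fell with hypoxia in ketamine fetuses (5.17% of all probes fell) and 1 with ketamine in hypoxic fetuses (3.66%). CNN1, a smooth muscle protein and 1 of the 2 markers, was not called in any comparison. It spread widely, from 46.3 to 417% in normoxic ketamine and from 64.2 to 302% in hypoxic vehicle fetuses. The part of the cells around vessels in the ANGPT1 values was not tested.

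ANGPT2, the ligand that usually opposes ANGPT1, was highest in hypoxic vehicle fetuses at all 4 probes. At A_70_P049681 the scaled signal was 7.27, 10.07, 7.03 and 5.96% in hypoxic ketamine fetuses and 16.3, 11.2, 18.2 and 7.65% in hypoxic vehicle fetuses. It was 5.56, 5.16, 5.69 and 10.7% in normoxic ketamine fetuses and 10.7, 6.46 and 8.26% in normoxic vehicle fetuses. Hypoxic vehicle replicates 1 and 3 were again the 2 highest arrays, and replicate 4 lay among the ketamine arrays. The 4 probes varied together, with correlations of 0.918 to 0.988 over the 15 arrays.

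With ketamine in hypoxic fetuses all 4 ANGPT2 probes fell, by 0.63 to 0.84. A_70_P002906 and A_70_P002907 read the same site, so the 4 are not separate readings. The falls were 0.76 ± 0.30 at A_70_P049681 (1.70-fold lower), 0.84 ± 0.34 at A_70_P049682 (1.79-fold lower) and 0.70 ± 0.27 at A_70_P002907 (adjusted p = 0.815 in limma for each). At A_70_P002907 the groups did not overlap, which was so for 1 of the 22 probes and for 2.04% of all probes (1.05% lower). Within slide 1 the 4 probes had -0.45 to -0.26 and none passed, and within slide 2 they had -1.37 to -0.95 and all passed.

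The ANGPT2 calls with ketamine rested on few arrays. At A_70_P049681, A_70_P049682 and A_70_P002907 they ended without hypoxic vehicle replicate 1 (-0.64, -0.61 and -0.60), hypoxic vehicle replicate 3 (-0.59, -0.70 and -0.57) or hypoxic ketamine replicate 4 (-0.66, -0.67 and -0.56), and at A_70_P049682 also without hypoxic ketamine replicate 1 (-0.81). The fourth probe, A_70_P002906, passed barely (-0.63 ± 0.29) and did not pass with any 1 of hypoxic vehicle replicates 1 and 3, hypoxic ketamine replicates 1, 3 and 4, normoxic vehicle replicates 2 and 3 and normoxic ketamine replicates 1 and 3 left out (-0.69 to -0.46), nor with quantile scaling (-0.59), with no filter on dim probes (-0.63) or in the authors' deposited table (-0.51). All 4 calls ended with normexp (-0.36 to -0.03), and in the authors' deposited table A_70_P049681 (-0.51) and A_70_P049682 (-0.38) had smaller differences that passed.

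With hypoxia in vehicle fetuses the ANGPT2 probes had differences of 0.47 to 0.63. A_70_P002907 rose by 0.63 ± 0.29 (1.55-fold, adjusted p = 0.303), with no overlap between the groups (15.9 to 27.3% in hypoxic against 11.99 to 15.7% in normoxic vehicle fetuses), and the other 3 did not pass. Among these, A_70_P002906, which reads the same site, had 0.53 ± 0.31 and its groups overlapped. Within the slides A_70_P002907 had 0.26 (not passed) and 1.02 (no test). The rise was not called with any 1 of hypoxic vehicle replicates 1 and 3, normoxic vehicle replicates 2 and 3, hypoxic ketamine replicates 1 to 3 or normoxic ketamine replicate 3 left out (0.50 to 0.63), nor with normexp (0.47) or in the authors' deposited table (0.48). In ketamine fetuses hypoxia gave 0.01 to 0.20 at the 4 probes, with no call. The ketamine effect in normoxic fetuses was -0.38 to -0.22 (-0.88 to -0.62 within slide 1, -0.08 to 0.26 within slide 2), with no call, and the interaction of -0.48 to -0.39 was not called at any of them.

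**Figure D3:**
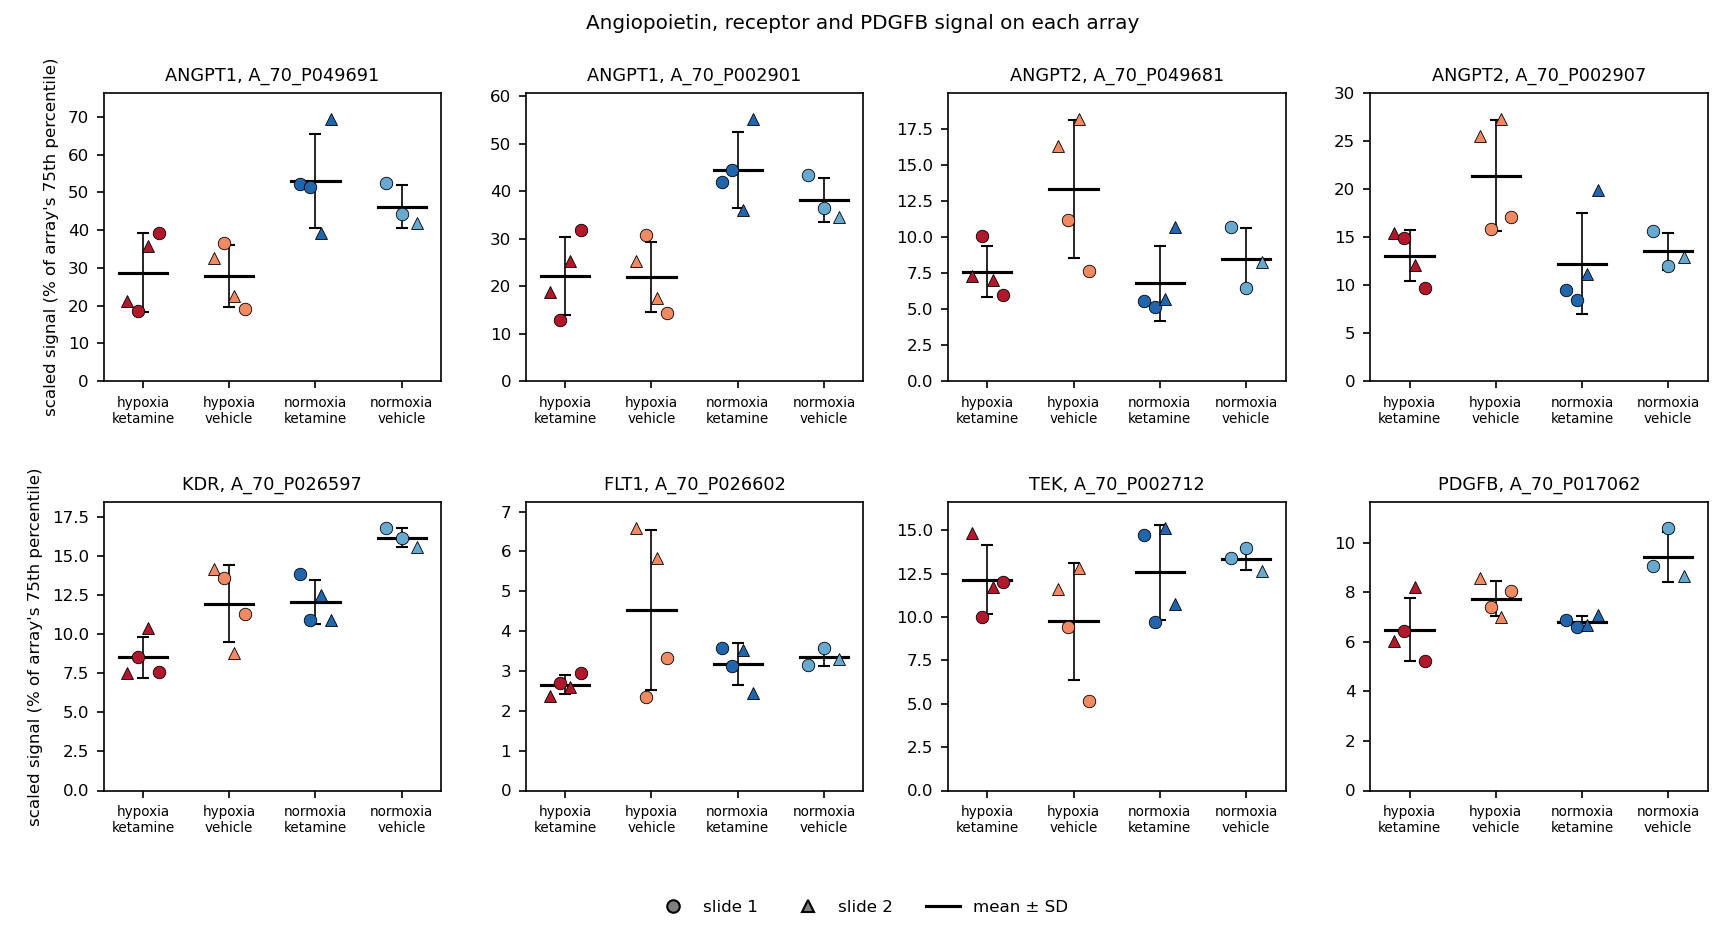
Scaled signal (y axes, percent of each array's 75th percentile, starting at 0) on every array of the 4 groups (x axes) for 8 probes of ANGPT1, ANGPT2, KDR, FLT1, TEK and PDGFB, with the slide as the marker shape and lines for mean ± SD. In the ANGPT1 panels hypoxic arrays lie below normoxic ones, with no overlap at A_70_P002901. At A_70_P049691 hypoxic ketamine replicate 4 lies just above normoxic ketamine replicate 3. The ANGPT2 and FLT1 panels show hypoxic vehicle replicates 1 and 3 (both slide 2) as the highest arrays, and in the TEK panel hypoxic vehicle replicate 4 is lowest at 5.14%.

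TEK, the angiopoietin receptor, was not called in any comparison at any of its 3 probes. At A_70_P002712 the scaled signal was 14.8, 10.03, 11.7 and 12.04% in hypoxic ketamine fetuses and 11.6, 9.41, 12.8 and 5.14% in hypoxic vehicle fetuses. It was 14.7, 9.73, 15.1 and 10.7% in normoxic ketamine fetuses and 13.4, 13.95 and 12.7% in normoxic vehicle fetuses. All 4 groups overlapped with their neighbours, and hypoxic vehicle replicate 4 was the lowest array at all 3 probes.

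In vehicle fetuses the TEK difference with hypoxia was -0.53 ± 0.27 at A_70_P002712 (adjusted p = 0.345), and -0.37 at both other probes. With slide as a block TEK A_70_P002712 had -0.58 and passed, and within slide 1, which holds replicate 4, it had -0.98 and passed, against -0.05 within slide 2. In ketamine fetuses the 3 probes had -0.11 to -0.04. Ketamine gave -0.19 to 0.39 in hypoxic and -0.45 to -0.03 in normoxic fetuses, with no call.

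Of the tested markers of endothelial cells, which carry KDR, FLT1 and TEK, none was called lower with hypoxia. Of 16 such genes listed 4 were on the array and 3 were tested, each well above background on some array of every group. The median difference of these 3 with hypoxia was -0.29 in vehicle fetuses and 0.02 in ketamine fetuses. For all probes it was -0.05 and -0.03. PECAM1 and NOS3 were not called in any comparison, and SELP, an adhesion molecule of activated endothelium and platelets, rose with hypoxia in vehicle fetuses by 4.86 ± 1.15 (adjusted p = 0.132) and fell with ketamine in hypoxic fetuses by 2.55 ± 1.06 (adjusted p = 0.815). Their summed scaled signal ranged from 427 to 595% in hypoxic ketamine, 509.8 to 664% in hypoxic vehicle, 504 to 591% in normoxic ketamine and 524 to 574% in normoxic vehicle fetuses. The sum includes SELP, which had 1.64 to 3.83% in normoxic and 2.51 to 386% in hypoxic fetuses. It therefore does not follow PECAM1 and NOS3 alone and is no measure of endothelial content. Hypoxic vehicle replicate 4, the array lowest for TEK, was also the lowest for PECAM1 (227%, other arrays 353 to 619%) and NOS3 (6.89%, other arrays 12.9 to 24.1%) and the highest for SELP (386%). The part of endothelial content in the receptor values was not tested.

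**Figure D4:**
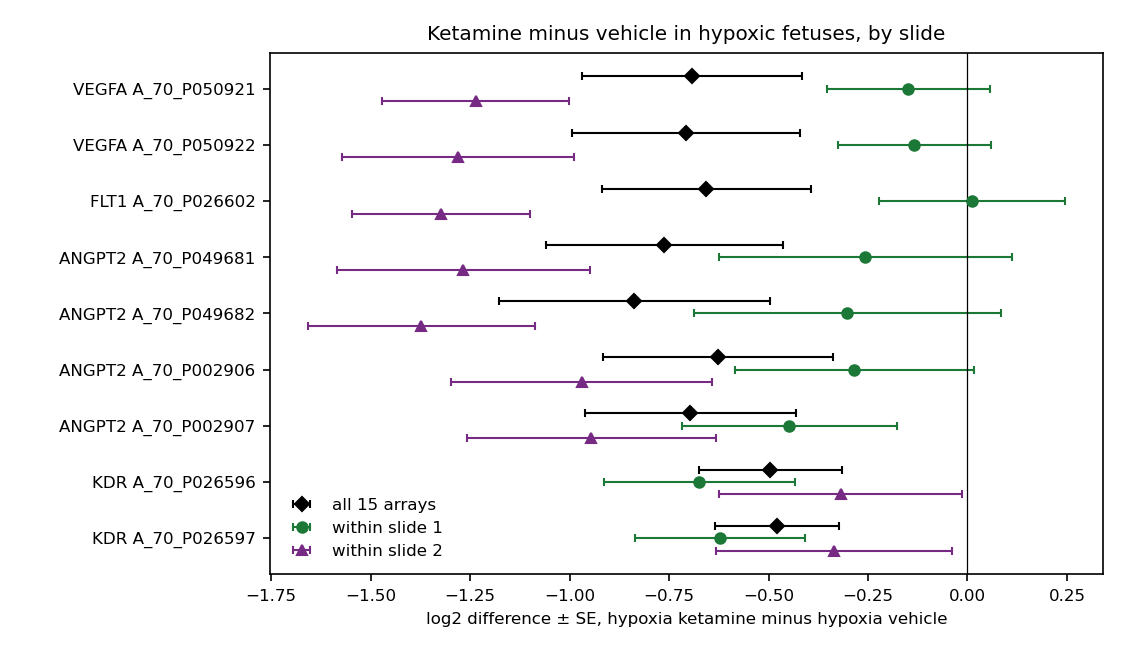
Log2 difference with SE (x axis), hypoxic ketamine minus hypoxic vehicle, for the 9 probes called in that comparison (y axis), from all 15 arrays and within each slide. VEGFA, FLT1 and ANGPT2 probes differ more within slide 2 (-1.37 to -0.95) than within slide 1 (-0.45 to 0.01), and the KDR pair has -0.67 and -0.62 within slide 1 and -0.32 and -0.33 within slide 2.

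Other genes of these families were scarce on the array. Of 13 further VEGF, PDGF and angiopoietin genes, 4 were tested (PGF, NRP1, NRP2 and TIE1), and none was called in any comparison. NRP2, a VEGF co-receptor, came closest, with -0.46 ± 0.23 under ketamine in hypoxic fetuses (adjusted p = 0.815). PGF, a ligand of FLT1, had -0.21 with hypoxia in vehicle fetuses and 0.19 with ketamine in hypoxic fetuses.

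Of 20 tested genes among 34 other angiogenic factors and receptors, 2 fell and 0 rose with hypoxia in vehicle fetuses. This is near the share over all probes, of which 10.1% fell and 5.88% rose. The 2 that fell were IGF1 (1.15 ± 0.21, adjusted p = 0.0821 in limma) and FGF10, a growth factor of branching epithelia (0.76 ± 0.22). In ketamine fetuses 2 fell, IGF1 by 0.69 ± 0.20 and MET, the hepatocyte growth factor receptor, by 0.36 ± 0.15. With ketamine in hypoxic fetuses FGF7 fell by 1.15 ± 0.51, CCN1, a matrix-bound angiogenic protein, fell by 1.37 ± 0.57, and FGF10 rose by 0.48 ± 0.21. Over all probes 5.17% fell with hypoxia in ketamine fetuses, and with ketamine in hypoxic fetuses 3.66% fell and 2.38% rose. In normoxic fetuses none was called, and the medians of the list in the 4 comparisons were 0.00, -0.05, -0.15 and -0.18.

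Among targets of the hypoxia-inducible factors other than VEGFA, 4 of 6 tested genes of 22 listed rose with hypoxia in vehicle fetuses and none fell. They were the glucose transporters SLC2A1 (0.94 ± 0.27) and SLC2A3 (2.01 ± 0.47), lactate dehydrogenase LDHA (1.27 ± 0.36) and aldolase ALDOA (0.49 ± 0.17). The median of the list was 0.72, against 0.05 for VEGFA, and in ketamine fetuses none of the 6 was called (median 0.30). With ketamine in hypoxic fetuses 3 fell and 0 rose: SLC2A1 by 0.61 ± 0.25, SLC2A3 by 1.48 ± 0.44 and the hexokinase HK1 by 0.57 ± 0.20 (median -0.57). Of 6 tested factors and regulators, HIF3A alone was called, with a rise of 0.53 ± 0.22 with hypoxia in ketamine fetuses. Over all probes 5.88% rose with hypoxia in vehicle fetuses and 3.54% in ketamine fetuses, and 3.66% fell with ketamine in hypoxic fetuses.

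None of the inhibitors of vessel growth fell. Of 7 tested genes among 15 listed, CXCL10, an interferon-induced chemokine, rose with hypoxia in vehicle fetuses by 3.36 ± 1.54, and in ketamine fetuses CXCL10 rose by 3.14 ± 1.42 and the protease inhibitor TIMP2 by 0.44 ± 0.20. No gene of the list passed after adjustment. The CXCL10 arrays were widely spread and overlapped, at 65.8 to 10745% in hypoxic against 15.5 to 76.7% in normoxic vehicle fetuses. In ketamine fetuses CXCL10 had 41.7 to 1350% with hypoxia against 10.2 to 53.2%. Markers of monocytes and macrophages, which can carry FLT1, rose for 4 of 5 tested genes in vehicle and 3 of 5 in ketamine fetuses (CD86 by 1.66 ± 0.42 and 1.38 ± 0.39). Their summed signal was 113 to 346% in hypoxic ketamine and 126 to 356% in hypoxic vehicle fetuses, against 80.6 to 96.1% in normoxic ketamine and 85.1 to 90.01% in normoxic vehicle fetuses. Their part in the FLT1 values was not tested. Of the remaining markers, WT1 of podocytes was not called in any comparison, 1 of 4 tubule genes rose with hypoxia in vehicle fetuses (AQP1, by 0.45 ± 0.21), and no platelet gene of the 8 listed was on the array. For these lists too, the shares over all probes that rose with hypoxia were 5.88% in vehicle and 3.54% in ketamine fetuses.

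Across the 15 arrays and 886 named genes, the profile of A_70_P050921 (VEGFA) was most like CPT1A, SLIT2, PPP1R12A, TFAP2A and LOC443008 (Pearson r = 0.684 to 0.786, Spearman rho = 0.614 to 0.829) and least like IGFBP6, LGALS1 and SRI (r = -0.789 to -0.619). For PDGFB at A_70_P017062 the most alike were PTGDS, NFAT5, UBQLN1, TGFBR1 and ARNT (r = 0.673 to 0.778) and the least alike CHCHD3, SERPINC1 and PGD (r = -0.703 to -0.675). For ANGPT1 they were CYGB, LAT2, CDK4, NTN4 and IGFBP5 (r = 0.815 to 0.852), against PDXK, FLT3LG and RABGGTB (r = -0.912 to -0.849). For ANGPT2 they were EPAS1, GGTA1, CLEC4E, FCGR2B and SLC2A1 (r = 0.659 to 0.785), against CALML4, DCN and IGFBP3 (r = -0.729 to -0.652). For FLT1 at A_70_P026322, which lay close to background, they were PABPC1, WT1, CD3D, CD3E and CAUXIN (r = 0.644 to 0.78), against IGFBP6, TPM1 and UBB (r = -0.768 to -0.685). These values describe likeness over arrays that share slides and groups and carry no test. Within the family, A_70_P050921 (VEGFA) had r = 0.359 to 0.849 with the 5 FLT1 probes, highest at A_70_P026602, 0.558 to 0.716 with the 4 ANGPT2 probes and 0.364 to 0.658 with the 3 TEK probes. With the 4 KDR probes it had 0.314 to 0.532, with the 3 PDGFB probes 0.211 to 0.474 and with the 2 ANGPT1 probes -0.01 and 0.00478. After group means were removed, the TEK probes had 0.655 to 0.863, the FLT1 probes 0.415 to 0.817 and the ANGPT2 probes 0.443 to 0.605.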

How the data were processed

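Kidney cortex RNA of 15 fetal sheep was measured on 15 one-colour Agilent ovine arrays with 15008 probes. The deposited scanner files give each spot's processed intensity, background-subtracted by Agilent Feature Extraction 10.1.1.1 with protocol GE1-v5_10_Apr08, per the file headers. The deposited value table holds log2 values of 11705 probes, made by the authors with steps not given in the sources used here, and 12 of its 15 columns correlated best with another array of their own group, so it served only as an alternative.

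Outlier spots were left out, spots of a probe were averaged, and log2 intensity minus the array's 75th percentile was fitted with limma 3.58.1 in R 4.3.3 (tables with pandas 2.3.3 in Python 3.11.15) over all 4 groups. The 12923 probes well above background on at least 3 arrays were tested, two-sided, in 4 group differences and their interaction. All p-values, adjusted or not, are from this limma model, with 11 residual and 2.39 prior degrees of freedom. The script was tested on simulated data. No member spot was saturated, and the number of arrays limits the precision. Slides were read from the barcode field of the file headers.

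Every probe of the 7 genes is reported. List genes at an unadjusted p up to 0.05 are named, at most 4 per list and comparison, using the probe with the highest mean signal, and likeness uses the 5 highest and 3 lowest correlations. Members and lists were chosen with earlier results of these data known. The fetuses were separate animals, and same-numbered arrays of different groups did not vary together (21 pairs, median r = 0.038), so replicate numbers were not used as pairs. Alternatives were quantile scaling, normexp background, the deposited table, no filter on dim probes, slide or replicate number as a block, each slide alone, only the groups compared, array weights and each array left out. Leaving out the arrays with placental lactogen or the 2 least correlated arrays was chosen after seeing the data. Some genes of the marker lists are not reported here.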

Additional observations from a re-analysis of the deposited data

Results flagged for a closer look

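In groups of 4 arrays, 2 of 69 sets of values held an array far from the others by Dixon's criterion (0.829 for 4 arrays), which chance meets in about 1 of 20 sets. ANGPT2 at A_70_P049681 had 10.7% in normoxic ketamine replicate 4, against 5.16 to 5.69% on the other 3 arrays of that group. TEK at A_70_P049686 had 1.26% in hypoxic vehicle replicate 4, against 3.54 to 4.04% on the other 3.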

How the results depend on the processing

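Of the 24 calls, all held with slide as a block and with array weights, 23 with quantile scaling and 20 in the deposited table, but 6 with normexp, 5 of 24 within slide 1 and 8 of 15 within slide 2. Counts of called probes moved as follows. With hypoxia in vehicle fetuses 2064 became 1316 (normexp) and 1193 (slide 1), and 1325 to 2447 with arrays left out in turn. In ketamine fetuses 1125 became 611 (slide 1) and 1854 (array weights). With ketamine in hypoxic fetuses 780 became 416 (normexp), 274 (slide 1), 426 (only the groups compared), 1443 (without placental lactogen arrays) and 1232 (without the 2 least correlated arrays), and 485 to 1585 with arrays left out. In normoxic fetuses 350 became 119, 668 (only the groups compared), 1070 (array weights) and 548 (2 least correlated), and 215 to 541. The interaction's 400 became 156, 222, 924 (array weights), 709 (placental lactogen) and 938 (2 least correlated), and 236 to 956. The cause was not tested. Normexp moved the median of all probes with hypoxia in ketamine fetuses to 0.08, against -0.03, and the share of calls that were higher to 63.1%, against 40.6%; with ketamine that share was 51.4%, against 39.4%, in hypoxic and 59.7%, against 36.0%, in normoxic fetuses, quantile scaling gave 50.4% and 51.1%, and the authors' deposited table gave 51.8% and 46.8%. With hypoxia in vehicle fetuses normexp gave 47.2%, against 36.8%.

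VEGFA at A_70_P050921 with hypoxia in vehicle fetuses had -0.56 within slide 1 and 0.63 within slide 2 (A_70_P050922: -0.60 within slide 1). With ketamine in hypoxic fetuses it had -0.15 within slide 1, -0.69 with only the groups compared, -0.70 without the placental lactogen arrays and -0.95 to -0.43 with arrays left out. In normoxic fetuses it had -0.42 and passed with only the groups compared, and its interaction was -0.82 within slide 2. FLT1 at A_70_P026602 had 0.0104 within slide 1 with ketamine in hypoxic fetuses. PDGFB at A_70_P017062 in normoxic fetuses had -0.23 with normexp and -0.27 in the deposited table, and with arrays left out it had -0.34 to -0.20 for hypoxia in vehicle fetuses and -0.39 to -0.17 for ketamine in hypoxic fetuses. Same-numbered arrays did not pair, and with the replicate number as a block VEGFA had -0.69 with ketamine in hypoxic fetuses and PDGFB -0.45 in normoxic fetuses, while 5 of the 24 calls ended. Signals near background, as for FLT1, limit what these arrays can resolve.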
